A study of Homo sapiens with 6 samples.

Results

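The 10 genes MPO, ELANE, AZU1, PRTN3, CTSG, LYZ, RNASE2, RNASE3, PRSS57 and SRGN encode proteins that immature myeloid cells store in their granules. They were chosen by name, and each was read from the array probe sets that the platform annotation assigns to that gene alone. Of the 10 genes, 8 were measured, with 12 probe sets in all, out of 19775 genes and 54613 probe sets that are not controls. RNASE3 and PRSS57 have no probe set of their own in the annotation used here and were not analysed on the arrays. Each gene was represented by its brightest probe set, taken as the mean of the 6 arrays, and the others are given beside it. All 12 probe sets had a mean above 3.74, the median signal of all probe sets on the log2 scale.

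Promyelocytes and early monocytic cells make most of these proteins in bulk and pack them into azurophil granules. These granules later fuse with phagosomes or release their content. The genes encode an oxidant-forming haem enzyme, a group of serine proteases, cationic ribonucleases and a cell wall-degrading enzyme. They also encode a proteoglycan that holds the positively charged proteins in place. Transcription of the genes starts at the progenitor stage under factors such as C/EBP-alpha, PU.1, RUNX1 and MYB. For most of them it is shut down as neutrophils mature, so RNA of those genes marks the promyelocyte-like and monoblast-like stage in acute myeloid leukaemia. LYZ is made up to the macrophage stage, and eosinophils also make the product of RNASE2.

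The samples were 6 wells of MV4;11, a human acute myeloid leukaemia line labelled MLL-AF4-rearranged, each read on 1 Affymetrix U133 Plus array. Of these wells, 3 held the solvent DMSO for 3 h, and the other 3 held 25 nM CA for 3 h, the compound that the series title spells out as cortistatin A. This natural product, with a steroid-like skeleton, inhibits the kinase subunits of Mediator, CDK8 and its paralogue CDK19. The labels give plating in triplicate and no separate cultures, so p-values describe the scatter of these wells alone, and that scatter may be technical. They name a column kit or a phenol reagent for the RNA without saying which array had which. Both groups are the same line, and in such bulk samples fewer cells of a type and less RNA per cell cannot be told apart.

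The array median is a low cut, and 12637 of all 19775 genes lay above it. Of 12 measured markers of a myelomonocytic line, 10 lay above the array median, among them ITGAM, CD4, CSF1R, FLT3, MEIS1 and PTPRC, while CD14 and FCGR1A lay below it. Their mean log2 signal ranged from 5.78 to 5.82 in DMSO and from 5.89 to 5.97 in cortistatin A, without overlap, and KIT, a receptor of progenitor cells, rose by 0.54 (limma adjusted p = 0.0227). FLT3, another progenitor receptor, was at -0.20 with all cortistatin A arrays below all DMSO arrays, as for 9.22% of all genes. It did not pass (limma adjusted p = 0.196). With 1 array left out, 0 to 4 of all genes passed, and whether KIT was among them is not shown. Markers of eosinophils, mast cells and basophils were above the array median for 4 of 11 genes. The mean signal of the 11 was 3.64 to 3.75 on the DMSO arrays and 3.70 to 3.75 on the others. The 4 were the eosinophil gene PRG2 (6.92 in DMSO and 6.94 in cortistatin A), TPSAB1, TPSB2 and GATA1. The eosinophil genes EPX and CLC lay below the median. Markers of lymphoid, erythroid, platelet, stromal and epithelial cells had mean signals of 4.26 to 4.30 on DMSO arrays and 4.21 to 4.36 on cortistatin A arrays, with 9 of 12 above the median. The beta-actin control probe sets gave a 3' signal above the 5' signal by 1.69 to 1.79 on DMSO arrays and by 1.88 to 2.08 in cortistatin A, again without overlap. An index over 4 human control transcripts overlapped between the groups. The part of the actin difference in the results was not tested.

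The comparison asked whether RNA of the granule proteins differs after a short inhibition of the Mediator kinases. None of the 8 measured genes passed the test, and their changes spanned only -0.095 (RNASE2) to 0.024 (LYZ) on the log2 scale, or 0.936-fold to 1.02-fold. Signals were higher with cortistatin A for 4 genes and lower for 4, with a median change of -0.0026 against 0.0065 over all genes. The test was limma with Benjamini-Hochberg adjustment over all genes at an adjusted p under 0.05, which called 0.582% of all genes. For the members the limma adjusted p ran from 0.511 to 0.950, and 0 had an unadjusted p under 0.05, against 12.6% of all genes. Of the 12 probe sets tested among all probe sets, 0 passed as well, where limma called 0.0513% of all probe sets, and 0 had an unadjusted p under 0.05, against 10.3% of all probe sets. None passed under any of the 17 processing alternatives.

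The intervals give the sizes of change that remain compatible with the values of the brightest probe sets. For the 7 members other than MPO every such limma 95% interval stayed within 0.22 on the log2 scale, or 1.16-fold in either direction. For MPO it reached -0.34, or 1.27-fold. The smallest change called in any gene was 1.26-fold, and the intervals of 7 of the 8 members lay inside that size. Other probe sets allowed more, down to -0.30 for the second one of LYZ and -0.68 for the dim one of SRGN, and in the fit over all probe sets RNASE2 reached -0.24. These intervals are for each gene or probe set alone and are not adjusted for the number of genes. The median size of change, in either direction, was 0.022 for the members and 0.076 for all genes (0.070 for genes above the array median). The members were brighter, with a median DMSO signal of 9.12 against 4.74 for all genes. Their median limma SE was 0.053 against 0.077 for all genes. Genes matched to them in signal were not compared.

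**Figure D1:**
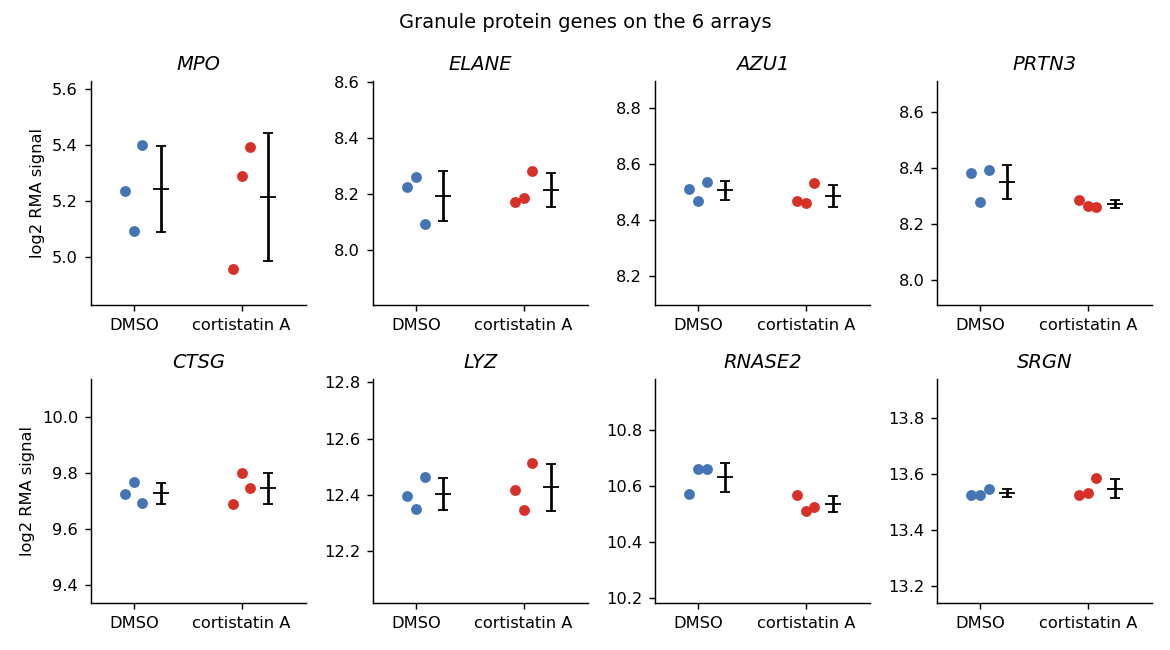
Log2 RMA signal of the brightest probe set of each measured member on every array, with DMSO in blue, cortistatin A in red and mean ± SD (n = 3 arrays) in black; each panel spans 0.8 log2 units. The groups overlap in every panel but that of RNASE2, where the 3 cortistatin A arrays (10.51 to 10.567) lie below the 3 DMSO arrays (10.571 to 10.66).

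MPO encodes myeloperoxidase, the haem enzyme that turns hydrogen peroxide and chloride into hypochlorous acid. Its main probe set was the dimmest of the 8 (mean 5.24 in DMSO), and the next, of ELANE, was at 8.19. The lymphoid, erythroid, platelet, stromal and epithelial markers had a median of 4.43 in DMSO, with CD79A at 5.10 and COL1A1 at 6.10. How much of the MPO signal is background was not tested. MPO had the widest spread between arrays of the 8 genes, with log2 signals of 5.24, 5.10 and 5.40 in DMSO and 4.96, 5.29 and 5.39 in cortistatin A. The lowest value came from cortistatin A replicate 1, and the groups overlapped. The change was -0.029 ± 0.13 (limma SE, n = 3 arrays per group, adjusted p = 0.950). Without cortistatin A replicate 1 it was 0.099. The other probe set of MPO had tighter replicates (mean ± SD of 4.48 ± 0.080 for the DMSO arrays and 4.44 ± 0.031 for cortistatin A) and gave -0.040.

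ELANE, PRTN3, AZU1 and CTSG encode the serine protease family of the azurophil granule. ELANE encodes neutrophil elastase, which cleaves elastin and bacterial outer membrane proteins and is often mutated in severe congenital neutropenia. Its log2 signals were 8.23, 8.26 and 8.09 in DMSO and 8.17, 8.19 and 8.28 in cortistatin A. The 2 groups covered nearly the same range, and the change was 0.020 ± 0.065 (limma adjusted p = 0.931). PRTN3 encodes proteinase 3, the main target of anti-neutrophil cytoplasmic antibodies in granulomatosis with polyangiitis. It read 8.38, 8.28 and 8.39 in DMSO and 8.29, 8.27 and 8.26 in cortistatin A. DMSO replicates 1 and 3 lay above all cortistatin A arrays, but DMSO replicate 2 lay among them. The change of PRTN3 was -0.080 ± 0.052 (limma adjusted p = 0.593), and its sign was negative under all alternatives (-0.12 to -0.026).

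AZU1 encodes azurocidin, an elastase relative without protease activity that binds heparin and draws in monocytes. Its log2 signals were 8.51, 8.47 and 8.54 in DMSO and 8.47, 8.46 and 8.53 in cortistatin A, a change of -0.020 ± 0.050 (limma adjusted p = 0.909). CTSG encodes cathepsin G, which has chymotrypsin-like activity and processes cytokines and platelet receptors. It read 9.72, 9.77 and 9.69 in DMSO and 9.69, 9.80 and 9.75 in cortistatin A, a change of 0.017 ± 0.053 (limma adjusted p = 0.927). For both genes the arrays of the 2 groups were interleaved. The 4 protease family genes thus had 2 higher and 2 lower values, all within 0.08 of 0 on the log2 scale.

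RNASE2 encodes eosinophil-derived neurotoxin, a ribonuclease with antiviral activity that monocytic cells make as well as eosinophils. It had the largest change of the 8 genes and was the one member whose groups did not overlap. The log2 signals were 10.571, 10.66 and 10.66 in DMSO and 10.567, 10.51 and 10.53 in cortistatin A. The lowest DMSO array and the highest cortistatin A array were almost equal. The change was -0.095 ± 0.051 with a limma adjusted p of 0.511, which is 0.936-fold with a 95% interval of 0.860 to 1.02. Groups did not overlap, with cortistatin A lower, for 1 of the 8 members and for 9.22% of all genes. The sign of RNASE2 was negative under all alternatives (-0.12 to -0.041). Of the other ribonuclease A genes, 5 were measured and 0 passed, against 0.582% of all genes. RNASE6, a monocyte ribonuclease, was at 0.047 and RNASE1, the pancreatic type, at 0.14, while RNASE11 (-0.14) and ANG, which encodes angiogenin (-0.097), were below the array median.

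LYZ encodes lysozyme, which cleaves the peptidoglycan of bacterial walls and is made from the progenitor to the macrophage stage. Its 2 probe sets did not give the same picture. The brighter one read 12.39, 12.35 and 12.46 in DMSO and 12.42, 12.35 and 12.51 in cortistatin A, a difference of 0.024 ± 0.063 (limma adjusted p = 0.913). The other one read 11.80, 11.76 and 11.77 in DMSO and 11.72, 11.55 and 11.64 in cortistatin A. All cortistatin A arrays lay below all DMSO arrays in the second probe set, where the same holds for 8.59% of all probe sets. Its change was -0.14 ± 0.067, with a limma adjusted p of 0.540 over all probe sets. The difference between the probe sets was 0.63 ± 0.060 in DMSO and 0.79 ± 0.089 with cortistatin A (mean ± SD of 3 arrays each), and the groups did not overlap. An exact two-sided permutation test gave p = 0.1, and no smaller p is possible with 3 arrays a group. This was 1 of 4 such pairs tested; the MPO pair gave an exact p of 1 and the SRGN pairs 0.2 and 0.4, all with overlapping groups. The actin 3' and 5' signals above moved with the same groups, and their part in this was not tested. In the fit that had the control index as a covariate, the brighter probe set was at -0.056.

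SRGN encodes serglycin, the core protein whose sulphated glycosaminoglycan chains hold proteases, lysozyme and other basic proteins in the granule. The main probe set read 13.53, 13.52 and 13.55 in DMSO and 13.52, 13.53 and 13.59 in cortistatin A. The groups overlapped, and the change was 0.014 ± 0.047 (limma adjusted p = 0.931). A second probe set gave 0.080 and the remaining, much dimmer one gave -0.23 ± 0.19, where cortistatin A replicate 1 was the highest of the 6 arrays and replicates 2 and 3 (5.48 and 5.34) the lowest. Neither of these separated the groups.

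**Figure D2:**
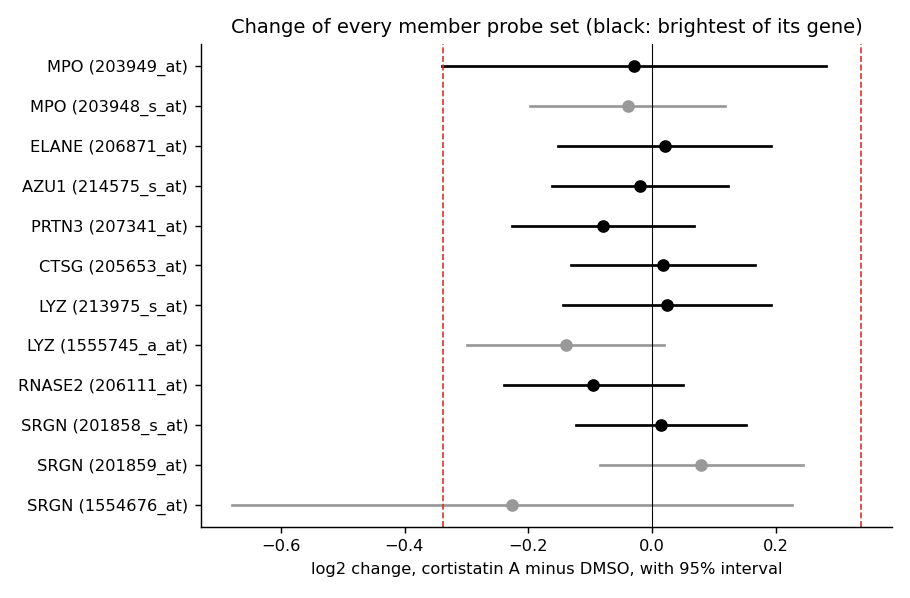
Log2 change (cortistatin A minus DMSO, n = 3 arrays per group) of all 12 member probe sets with limma 95% intervals from the fit over all probe sets, the brightest of each gene in black and the others in grey; dashed lines mark the smallest change called in any gene (0.34 in either direction). All intervals include 0, and the widest, of the dim SRGN probe set, runs from -0.68 to 0.23.

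Deviations of the members from their group means differed between arrays. The same was not computed over all genes, so whether it is particular to the members is not shown. On cortistatin A replicate 3, 6 of the 8 members lay above their group mean (median deviation 0.043 on the log2 scale), and on DMSO replicate 3 also 6 did (0.031). On cortistatin A replicates 1 and 2 only 2 members did in each (medians -0.021 and -0.020). Without cortistatin A replicate 3 the median change of the members was -0.031, with 7 of 8 members lower, and without cortistatin A replicate 1 it was 0.027, with 5 of 8 higher. The balance of 4 higher and 4 lower therefore moved with single arrays.

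The sequence before the start of the members is shown as a description. CEBPA, IRF8, MYC and GATA2 rose in the main gene fit (below) and the members did not pass. A link between these results was not tested. RefSeq promoters (GRCh38.p14) were found for 6 of the 10 genes, namely AZU1, PRTN3, CTSG, RNASE2, RNASE3 and PRSS57. The last 150 bases before each start are printed 5′ to 3′ on the gene's strand, and capitals mark matches on either strand to the C/EBP-type motif TTGCNNAA or the PU.1-type motif GAGGAA.
AZU1, chr19:827687-827836, plus strand: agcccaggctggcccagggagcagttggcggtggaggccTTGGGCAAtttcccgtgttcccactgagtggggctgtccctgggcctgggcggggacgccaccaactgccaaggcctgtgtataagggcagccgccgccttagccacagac
PRTN3, chr19:840849-840998, plus strand: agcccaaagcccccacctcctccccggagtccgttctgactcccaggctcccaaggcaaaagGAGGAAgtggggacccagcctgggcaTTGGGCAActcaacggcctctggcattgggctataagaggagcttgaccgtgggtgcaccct
CTSG, chr14:24576251-24576400, minus strand: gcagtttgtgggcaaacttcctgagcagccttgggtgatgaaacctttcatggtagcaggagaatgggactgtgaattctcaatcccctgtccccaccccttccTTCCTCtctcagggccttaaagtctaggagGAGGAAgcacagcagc
RNASE2, chr14:20955337-20955486, plus strand: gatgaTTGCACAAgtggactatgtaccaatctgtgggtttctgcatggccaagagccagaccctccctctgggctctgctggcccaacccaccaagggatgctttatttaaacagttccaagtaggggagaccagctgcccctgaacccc
RNASE3, chr14:20891235-20891384, plus strand: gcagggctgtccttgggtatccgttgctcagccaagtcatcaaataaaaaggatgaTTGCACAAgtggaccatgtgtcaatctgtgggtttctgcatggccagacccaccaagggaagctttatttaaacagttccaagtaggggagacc
PRSS57, chr19:695453-695602, minus strand: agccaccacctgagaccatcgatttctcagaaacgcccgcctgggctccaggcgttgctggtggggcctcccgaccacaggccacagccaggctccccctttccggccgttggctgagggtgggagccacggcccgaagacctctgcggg

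The C/EBP-type motif was in 4 of these 6 windows (AZU1, PRTN3, RNASE2 and RNASE3), and 5.02% of 35116 RefSeq promoters hold it in the same window. The PU.1-type motif was in 2, PRTN3 and CTSG, against 14.8% of promoters. In PRTN3 both were present, the PU.1-type match at positions -88 to -83 and the C/EBP-type match at -62 to -55, where -1 is the last base before the start. RNASE2 and RNASE3 carry the same C/EBP-type match, TTGCACAA, and are a duplicated pair: the 250 bases before their starts were 96.5% identical over 199 aligned base pairs, while the other pairs were 56.3% to 63.6% identical. A MYB-type motif (AACNGNC) was in 3 windows (17.3% of promoters), a RUNX-type motif (TGTGGT) in 1 (6.59%) and TATAAA in 0 (6.71%). A match describes letters only, and the arrays do not measure binding.

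Of the transcription factors known to control granule genes, 13 were measured and 4 rose with cortistatin A, while 0 fell, against 0.445% of all genes called higher. The list had a median change of 0.24, and 12 of its 13 genes had higher values. It holds CEBPA and IRF8, which the study is known to have named and may have chosen on these samples. The whole list, with MYC and GATA2, was also chosen with earlier results of these data known. Its count and direction are therefore not independent evidence. CEBPA, the factor that starts the granulocyte programme, read 10.47, 10.42 and 10.40 in DMSO and 10.84, 10.85 and 10.87 in cortistatin A, a rise of 0.42 ± 0.047 (limma adjusted p = 0.0248). IRF8, which steers progenitors towards monocytes, read 11.34, 11.29 and 11.23 against 11.77, 11.71 and 11.78, a rise of 0.47 ± 0.053 (limma adjusted p = 0.0248). For both, every cortistatin A array lay well above every DMSO array.

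GATA2, a zinc finger factor of stem and early progenitor cells, rose from 6.14, 6.15 and 6.26 in DMSO to 6.72, 6.60 and 6.84 in cortistatin A, a change of 0.53 ± 0.075 (limma adjusted p = 0.0452). Its 2 other probe sets gave 0.18 and 0.056, and with the mean of all 3 the change of GATA2 was 0.26 and not called. The limma adjusted p was then 0.197, and over all alternatives it ran from 0.000401 to 0.206. MYC, the growth regulator that falls during myeloid maturation, read 10.76, 10.69 and 10.77 in DMSO and 11.12, 11.15 and 11.13 in cortistatin A, a rise of 0.39 ± 0.049 (limma adjusted p = 0.0332). The calls of CEBPA, IRF8, MYC and GATA2 all rested on the full set of arrays. In each of the 6 fits that left 1 array out none of them passed, with limma adjusted p from 0.0909 to 0.204 for these genes and CSGALNACT1 (below), whose changes stayed between 0.37 and 0.59. RUNX1 has no single-gene probe set in the annotation used here. SPI1, which encodes PU.1 and was picked after its value was seen, was at 0.0016 ± 0.085. The mean of its 1 probe set was 4.36 in DMSO. The lymphoid, erythroid, platelet, stromal and epithelial markers had a median of 4.43 there. How much of the SPI1 signal is background was not tested.

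**Figure D3:**
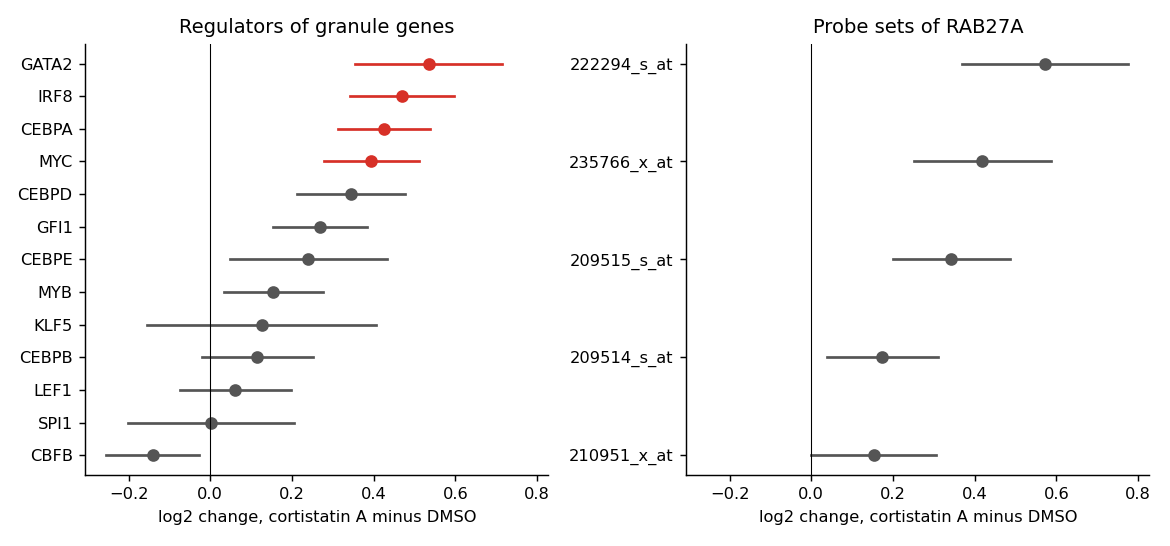
Log2 change (cortistatin A minus DMSO, n = 3 arrays per group) with limma 95% intervals of the 13 measured regulators of granule genes on the left and of the 5 probe sets of RAB27A on the right; red marks a limma adjusted p under 0.05. The left panel is from the fit over all genes and the right panel from the fit over all probe sets. GATA2, IRF8, CEBPA and MYC are the 4 called regulators in the gene fit. In the fit over all probe sets none of the 4 passed (limma adjusted p from 0.0761 to 0.106). All 5 RAB27A probe sets lie above 0, from 0.15 to 0.57, without passing.

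Serglycin carries sulphated glycosaminoglycan chains. Of 17 measured enzymes of chondroitin and heparan chain synthesis 1 rose and 0 fell (list median 0.064), against 0.445% and 0.137% of all genes. EXT1, EXT2 and NDST1 of this list act on heparan chains, and none of them was called. CSGALNACT1 adds the first N-acetylgalactosamine and so commits the linker to chondroitin sulphate. Its log2 signals were 5.19, 5.28 and 5.27 in DMSO and 5.77, 5.77 and 5.83 in cortistatin A, a rise of 0.54 ± 0.052 or 1.46-fold (limma adjusted p = 0.0198). The groups were far apart compared with their spread. Its other probe set lay below the array median and gave -0.13, so that with the mean of both the change of CSGALNACT1 was 0.21 and not called. The limma adjusted p was then 0.231, the highest of its alternatives, the lowest being 0.000564. CHSY1, which extends the chain, was at 0.24 ± 0.053 (limma adjusted p = 0.151). XYLT1 and B4GALT7, which start the linker on the core protein, were at 0.18 and 0.17. The other probe set of B4GALT7, above the array median, gave 0.020. The other probe set of XYLT1, below the array median, gave -0.072.

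Genes for sorting, transport and release of granules had 0 of 22 members called, against 0.582% of all genes, and a median change of -0.0029. RAB27A, the small GTPase that brings azurophil granules to the plasma membrane, has 5 probe sets, all above the array median. In all 5 the cortistatin A arrays lay above the DMSO arrays, which holds for 7.88% of all probe sets. The brightest gave the smallest value (0.15 ± 0.055, limma adjusted p = 0.326), and another the largest, with 8.34, 8.42 and 8.41 in DMSO and 8.99, 8.80 and 9.09 in cortistatin A (0.57 ± 0.086, limma adjusted p = 0.106 over all probe sets). When the 5 were averaged, the change of RAB27A was 0.33 at a limma adjusted p of 0.0767, and over all alternatives that p ran from 0.0301, with trend and robust variances, to 0.636. STX11, a syntaxin of granule release in cytotoxic cells, read 5.18, 5.10 and 5.06 in DMSO and 4.53, 4.59 and 4.78 in cortistatin A, a difference of -0.48 ± 0.078 (limma adjusted p = 0.0720). Its other, dim probe set gave 0.16. With genes below the array median left out, the change of STX11 passed at a limma adjusted p of 0.0248, and over all alternatives that p ran from 0.0104 to 0.404. HPS4, a subunit of a lysosome-related organelle complex, was at 0.17, and AP3D1, of the AP-3 sorting adaptor, at -0.13.

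Genes whose products process or restrain granule enzymes had 0 of 14 called (median 0.022), against 0.582% of all genes. SERPINA1, the antiprotease of elastase, and SERPINB8 were each at 0.20, SERPINA3, which inhibits cathepsin G, at 0.23 and PI3, which encodes elafin, at -0.25, with the last of these below the array median. The other probe set of PI3 gave 0.064, and that of SERPINB8, above the array median, gave 0.0068. Myeloperoxidase needs haem and chaperones of the endoplasmic reticulum, and 0 of 11 such genes were called (median -0.0028, range -0.098 to 0.15). The members with the smallest p were the lectin chaperone CANX (-0.090), ferrochelatase FECH (-0.098) and the haem pathway enzymes UROS (0.087) and CPOX (0.15). FECH was at 0.090 in its next probe set, and the 2 others of UROS gave 0.21 and -0.15. Lysosomal proteins that azurophil granules share had 0 of 18 called (median -0.027), with ARSA at 0.15, NPC2 at -0.15, LAMP2 at 0.12 and GAA at 0.11. The other 3 probe sets of LAMP2, all above the array median, gave 0.0016, -0.031 and 0.065, and the other one of ARSA gave 0.012.

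Genes of other granule classes and defensins were mostly dim. The list held specific, gelatinase and late granule genes and defensins such as DEFA4. Of its 18 measured genes 7 lay above the array median, against 12637 of all 19775 genes. Of the 18, 0 were called (median 0.057), against 0.582% of all genes. CYBB, the membrane subunit of the phagocyte oxidase, was at 0.25 (limma adjusted p = 0.277) and at 0.093 in its next probe set. Its remaining probe sets, below the array median, gave 0.025 and -0.23. With the mean of all its probe sets the change of CYBB was 0.035. MMP8 (-0.22), CRISP3 (0.23) and PTX3 (0.23) were below the median, and the other probe set of MMP8 gave 0.12. Granule genes of cytotoxic lymphocytes had 0 of 9 called, with GZMB at -0.19, GZMH at 0.27, PRF1 at -0.13 (0.016 in its other probe set) and GZMM at 0.072.

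**Figure D4:**
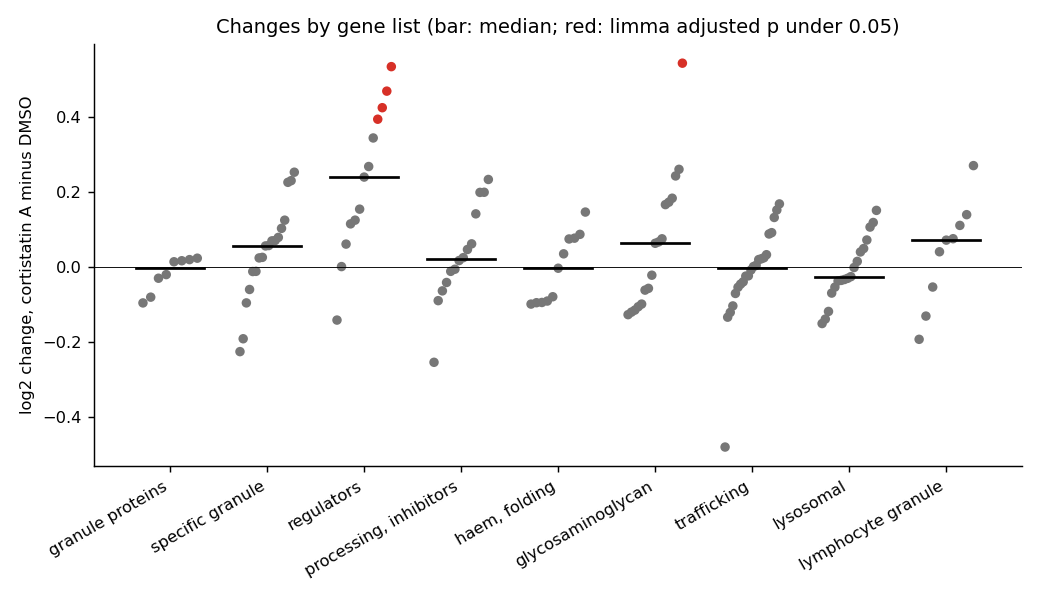
Log2 change (cortistatin A minus DMSO) of each measured gene in 9 lists, 1 point per gene, with the list median as a bar and called genes (limma adjusted p under 0.05) in red. The 8 granule protein genes lie between -0.095 and 0.024, and the called genes are 4 regulators and CSGALNACT1 of the glycosaminoglycan list.

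AZU1, PRTN3 and ELANE lie side by side on chromosome 19 in the RefSeq table, followed by CFD, the complement factor D gene, and MED16, a Mediator subunit. CFD (mean ± SD of 11.32 ± 0.022 in DMSO and 11.35 ± 0.028 with cortistatin A) and MED16 (7.43 ± 0.045 and 7.40 ± 0.053) differed by 0.030 and -0.025, both with overlapping groups. Taking the nearest protein-coding genes on each side, up to 2 per side, the 10 members had 28 neighbours that are not members. Of these, 27 were measured and 0 were called, against 0.582% of all genes. With limma, 0 had an unadjusted p under 0.05, against 12.6% of all genes (limma adjusted p from 0.417 to 0.981, median change 0.025). Of the 27 measured neighbours, 4 had all cortistatin A arrays above all DMSO arrays, as 10.2% of all genes do. For 1 neighbour they all lay below, as for 9.22% of all genes. KIFBP (0.11), VPS26A (0.11) and SUPV3L1 (0.11), around SRGN on chromosome 10, were among the 4. The groups overlapped for DDX21 (0.030), also next to SRGN, and for the main probe set of SRGN itself.

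**Figure D5:**
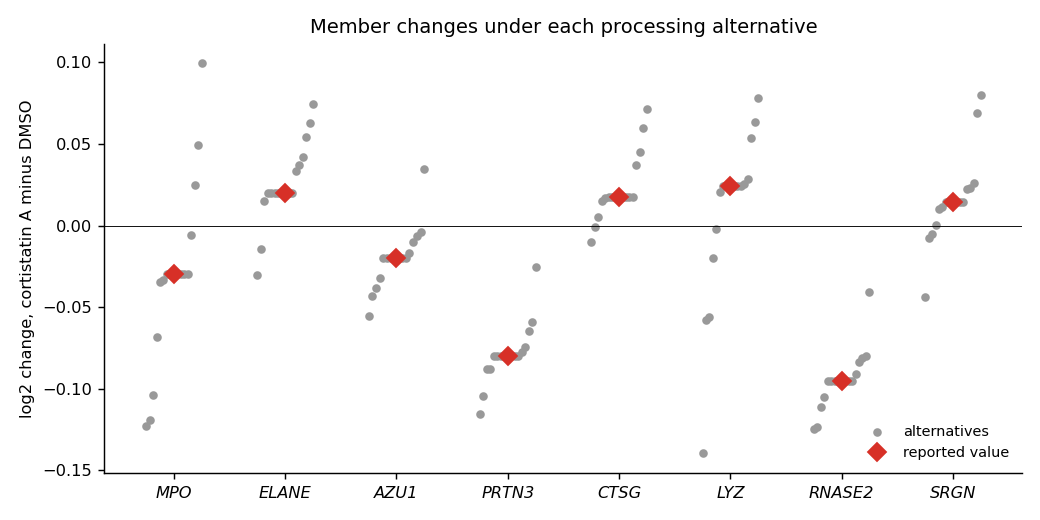
Log2 change (cortistatin A minus DMSO) of each measured member as reported (red diamond) and under each processing alternative that measured it (grey points). RNASE2 and PRTN3 stay below 0 in all of them, and the other 6 members have values on both sides of 0.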

How the data were processed

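The deposited table holds log2 values by RMA, made by the authors with the affy package per the submitters' processing notes, with no version. The scale is not stated and was taken as log2 from the range of values, 0.81 to 13.84. RMA makes array distributions alike, so a shift of all transcripts is removed. Arrays have no read depth, and their number limits precision. Of 54675 probe sets, 62 are controls, 41091 name 1 gene, 1801 several and 11721 none in the platform annotation, whose symbols were brought up to date by RefSeq gene identifier.

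Groups were compared in R 4.3.3 by limma 3.58.1 (lmFit, then eBayes, group as the only term, 4 residual and 2.68 prior degrees of freedom), over all genes and, separately, all probe sets. Named genes were all members, up to 4 of each other list by smallest p with those called, and genes within 2 places of a member in the RefSeq table. Cell markers, EXT1, EXT2, NDST1 and SPI1 are named outside this rule. The members and lists were chosen with earlier results of these data known. Promoters were searched in Python 3.11.15 and aligned with Biopython 1.88. The gene step was tested on simulated data. Alternatives were a replicate block, dim genes left out, mean of probe sets, no _x_at or _s_at types, every probe set tested, further quantile normalization, housekeeping centring, trend and robust variances, an unmoderated test, an adjusted p under 0.1, each array left out and, chosen after seeing the data, a 3' to 5' covariate.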

Additional observations from a re-analysis of the deposited data

How the results depend on the processing

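The count of granule protein genes called was 0 under all 17 alternatives. The change of RNASE2 had an unadjusted p under 0.05 without moderation (0.0480) and with trend and robust variances (0.00941, adjusted 0.132 by limma). The median change of the granule members was -0.039 with the mean of all probe sets, 0.052 after housekeeping centring, which moved the median of all genes from 0.0065 to 0.061, and -0.056 with the 3' to 5' covariate. It ran from -0.031 to 0.027 with 1 array left out. Signs turned as follows, for genes that were not called. Housekeeping centring put the change of AZU1 at 0.035 and the change of MPO at 0.025. The mean of probe sets put the change of LYZ at -0.058, the change of SRGN at -0.044 and the change of FECH at 0.0051. Without the _x_at and _s_at types the change of LYZ was -0.14, that of FECH 0.090 and the change of XYLT1 -0.072, and AZU1 was not measured. The 3' to 5' covariate put LYZ at -0.056 and SRGN at -0.0073. With 1 array left out the change of CTSG ran from -0.010 (without cortistatin A replicate 2) to 0.045, being -0.00064 without DMSO replicate 3. The change of ELANE ran from -0.030 (without DMSO replicate 3) to 0.054, being -0.0145 without cortistatin A replicate 3. LYZ ran from -0.020 (without cortistatin A replicate 3) to 0.064, being -0.0023 without DMSO replicate 2. MPO ran from -0.12 (without cortistatin A replicate 3) to 0.099 (without replicate 1), being 0.049 without DMSO replicate 3. SRGN ran from -0.0054 (without cortistatin A replicate 3) to 0.026.

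The count of genes called, 115 (88 higher and 27 lower), was 321 once dim genes were dropped, 76 by probe set means, 54 without the _x_at and _s_at types, 28 over all probe sets, 762 with trend and robust variances, 25 without moderation, 260 at an adjusted p under 0.1, 0 with the index (2161 at an unadjusted p under 0.05) and 0 to 4 with 1 array left out. Of the regulators 4 were called as reported, 2 without the _x_at and _s_at types, 0 over all probe sets, 8 with trend and robust variances, 1 without moderation, 0 with the index and 0 with any array left out. Of the glycosaminoglycan enzymes 1 was called as reported, 3 with trend and robust variances, and 0 with the mean of probe sets, over all probe sets, without moderation, with the index or with any array left out. Trafficking genes had 0 called as reported, 1 with dim genes left out or at an adjusted p under 0.1, and 2 with trend and robust variances. Processing genes and textbook neighbours had 1 each with trend and robust variances. The cause of these shifts was not tested.

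Same-numbered arrays share a replicate number in the labels. Their deviations from the group means correlated across genes at -0.055, 0.0095 and 0.016, and those of differently numbered arrays at -0.042 to 0.035. These values cannot show whether wells shared plating or processing. With the replicate block the count of genes called by limma was 0 (2243 at an unadjusted p under 0.05), 0 regulators and 0 glycosaminoglycan enzymes, and 0 granule protein genes.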
